A study of Mus musculus with 5 samples.

Results

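The switch from feeding to early fasting was described in hepatocytes of 2 libraries, 1 from fed mice (0 h) and 1 from mice fasted for 8 h. All barcodes that the deposited barcode table assigns to them were taken, 7208 at 0 h and 12153 at 8 h, or 19361 of the 47473 barcodes of the series. The mice of both were male, of strain C57BL/6J and wild type (WT), and ate normal chow. The mice had been trained for 3 days to fast for 16 h and feed for 8 h. At 0 h they had fed for 4 h with 20% sucrose in the drinking water and were killed at clock hour 13. At 8 h food and sucrose water had been gone for 8 h and the clock hour was 21, so hours of fasting and clock hour cannot be told apart. The labels give neither the age of the mice nor how many stand behind each library. Isolated total hepatocytes were loaded, and 64 genes were counted as UMIs (unique molecular identifiers, 1 per captured transcript) after hybrid capture.

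After a sugar-rich meal, insulin drives the liver to turn glucose into fatty acids and triglyceride, largely through the transcription factors SREBP-1c and ChREBP. When food is withdrawn, insulin falls and glucagon rises, lipogenic genes are switched off, and FOXO and CREB factors switch on genes of glucose production. The liver lobule divides this work. Cells near the portal vein are known for glucose production, and cells near the central vein for glutamine synthesis and detoxification.

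The 8 h library was shallow. Its barcodes held a median of 219 panel UMIs against 1033 at 0 h, and 3979629 UMIs in all against 7549765. Only 42.5% of its barcodes had 300 or more UMIs, against 93.0% at 0 h. Those 5159 barcodes still held 75.2% of the UMIs of the 8 h library. Its barcodes spread widely in depth, with 1639 under 100 UMIs, 4168 of 100 to under 200 and 1187 of 200 to under 300. The wider ranges of 300 to under 600 and 600 to under 1200 held 3021 and 2108. Levels are therefore given as CPM (UMIs per 1000000 panel UMIs) in all barcodes and again in those of 300 or more, here called deep barcodes. Alb, the hepatocyte marker that encodes serum albumin, took 69.4% of UMIs at 0 h and 71.3% at 8 h. Leaving it out of the denominator raised every log2 ratio by the same amount, for instance that of Pck1 from 1.58 to 1.67. Barcode sequences shared by both libraries numbered 26. With 1 library per time point, no difference below has a replicate check, and the intervals given are 95% intervals of counting error only.

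Of the 64 genes, 56 had at least 100 UMIs in the pair of libraries. The 8 h level was over 2-fold higher in 10 of them (17.9%) and over 2-fold lower in 7 (12.5%). Without Alb in the denominator the counts were 13 of 55 (23.6%) and 6 (10.9%). In deep barcodes they were 7 of 55 (12.7%) in each direction. Among the 7 lower genes were Srebf1, Fasn, Elovl6, Acly, Gpam and Acaca, which serve the making of fat from sugar. The 10 higher genes were Elovl3, Igfbp1, Pck1, Elovl5, Sds, Hsd3b7, Cyp46a1 and 3 genes of other liver cells, Mrc1, Cd68 and Cdh5. The median log2 ratio over the 56 genes was 0.047, and over the 55 in deep barcodes -0.14.

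**Figure D1:**
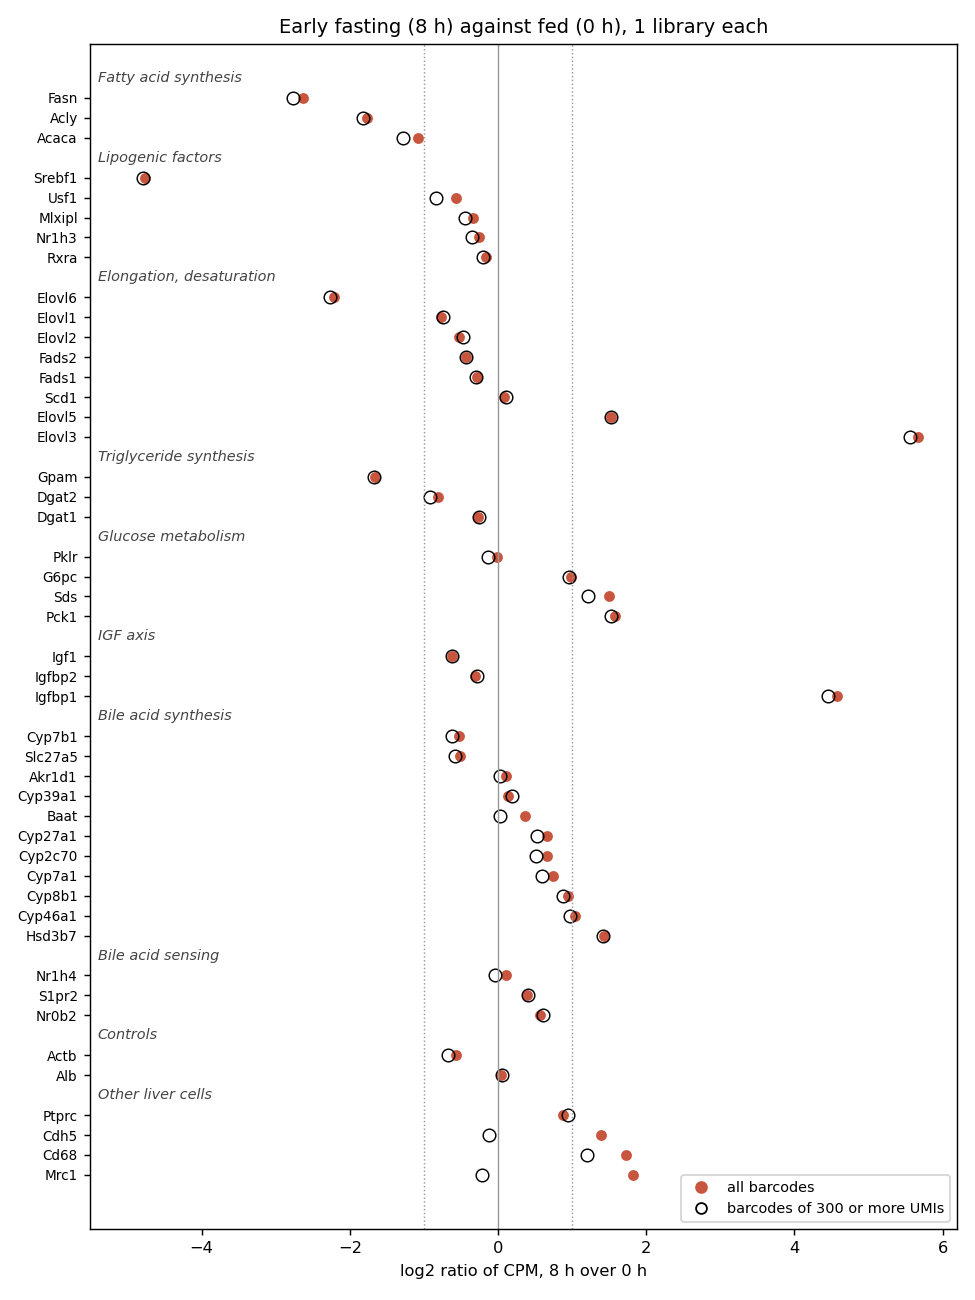
Log2 ratio of CPM at 8 h over 0 h for genes counted on each list. Filled points are all barcodes, open circles barcodes of 300 or more UMIs, and dotted lines mark 2-fold. Most pairs lie close together, from Srebf1 (-4.77 and -4.80) to Elovl3 (5.66 and 5.56), while Cdh5 and Mrc1 fall from above 1 to below 0 in deep barcodes.

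Promoters of 4 genes past 2-fold, 3 higher and 1 lower, are shown as examples of the motifs found, not as the full set of matches. They are the bases before the RefSeq start of transcription (GRCm38.p6), without those inside the GENCODE gene model, written in the direction of transcription. Capitals mark matches to a motif list searched on both strands. Igfbp1 (chr11:7197537-7197781, plus strand) holds the insulin response element CAAAACAA, known as a FOXO site, starting 108 bases before the start. Pck1 (chr2:173152823-173153047, plus strand) holds the short CREB site TGACG on the minus strand at 90 bases. Elovl5 (chr9:77917115-77917363, plus strand) holds the E-box CACGTG at 161 bases. Gpam (chr19:55127239-55127488, minus strand, the upstream of 2 listed starts) holds the SREBP element TCACNCCA at 165 bases.
Igfbp1: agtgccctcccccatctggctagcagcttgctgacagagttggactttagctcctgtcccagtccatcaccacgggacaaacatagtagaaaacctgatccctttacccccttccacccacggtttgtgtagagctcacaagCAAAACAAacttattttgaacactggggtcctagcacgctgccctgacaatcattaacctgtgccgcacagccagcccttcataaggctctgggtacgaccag
Pck1: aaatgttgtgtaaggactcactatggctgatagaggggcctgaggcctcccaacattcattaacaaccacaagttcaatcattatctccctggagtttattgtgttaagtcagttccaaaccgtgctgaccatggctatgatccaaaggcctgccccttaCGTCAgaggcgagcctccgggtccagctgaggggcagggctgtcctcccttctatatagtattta
Elovl5: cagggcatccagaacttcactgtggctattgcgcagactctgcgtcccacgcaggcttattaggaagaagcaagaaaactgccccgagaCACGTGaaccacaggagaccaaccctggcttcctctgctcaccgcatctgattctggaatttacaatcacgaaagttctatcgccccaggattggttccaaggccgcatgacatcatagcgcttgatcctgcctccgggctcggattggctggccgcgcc
Gpam: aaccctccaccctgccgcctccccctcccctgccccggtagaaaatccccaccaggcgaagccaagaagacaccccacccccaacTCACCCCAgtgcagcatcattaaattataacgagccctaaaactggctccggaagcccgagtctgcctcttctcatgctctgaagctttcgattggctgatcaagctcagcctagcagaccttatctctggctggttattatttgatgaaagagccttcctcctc

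Of all 32851 promoters in that table, cut to the same 250 bases, 2.21% hold CAAAACAA, 17.8% TGACG, 6.02% CACGTG and 3.67% TCACNCCA. The other motifs searched were the FOXO site TGTTTNC (17.8%), the full CREB site TGACGTCA (1.55%, which contains TGACG), the D-boxes TTATGTAA (0.819%) and TTACGTAA (0.113%) and the ROR element AGGTCA (14.0%). Among 15 genes looked up, G6pc and the hepatocyte genes past 2-fold, 12 were in the table. The same motifs also occurred elsewhere. Among lower genes, Srebf1 holds TGTTTNC at 77 bases from the first of its 3 listed starts, and Elovl6 holds TGTTTNC at 123 and AGGTCA at 193. Acly holds AGGTCA at 40 bases, and the other Gpam start has TGACG at 9 and 31 and AGGTCA at 196. G6pc holds TGTTTNC at 141, TTACGTAA at 162 and AGGTCA at 54. The GENCODE gene model of G6pc begins inside its 250 bases, ahead of the matches at 141 and 54. No match was found in that window for Fasn, Acaca, Hsd3b7 and Cyp46a1, which says only that these letters are not there. A match is a description of the sequence and not evidence of binding.

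Among the factors that control fat synthesis, the lowest ratio was that of Srebf1, which encodes SREBP-1, the insulin-driven activator of lipogenic genes (chromosome 11, 60199089 to 60222581). It had 34264 UMIs at 0 h and 663 at 8 h. In deep barcodes that was 4531 CPM against 163, a log2 ratio of -4.80 (-4.93 to -4.67). The ratio lay between -4.60 and -5.57 in the 5 ranges of barcode depth that both libraries share, the last of them with 4 UMIs at 8 h. An exon of Srebf1 is overlapped by Mir6922. The other 4 lipogenic factors of the panel stayed within 2-fold. Mlxipl, which encodes the glucose sensor ChREBP, had 2026 CPM at 0 h and 1605 at 8 h (log2 -0.34, -0.38 to -0.29). Nr1h3, the oxysterol receptor LXR-alpha, was at -0.25, Rxra, its partner receptor, at -0.16 and Usf1 at -0.57 (-0.78 to -0.36). Exons of other genes overlap Nr1h3 (Gm13783) and Usf1 (Tstd1).

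The 3 fatty acid synthesis enzymes on the panel were all over 2-fold lower. Fasn, which encodes fatty acid synthase, went from 205371 UMIs to 17424. Its log2 ratio was -2.64 in all barcodes and -2.76 (-2.79 to -2.74) in deep ones. Acly, which makes acetyl-CoA from citrate, had 20778 CPM at 0 h and 5878 at 8 h in deep barcodes (log2 -1.82, -1.84 to -1.80). Acaca, acetyl-CoA carboxylase, was closest to the threshold, with 3125 and 1477 CPM in all barcodes (log2 -1.08). Without Alb it stood at -0.99, just inside 2-fold, and in deep barcodes at -1.29.

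Enzymes that lengthen and desaturate fatty acids went both ways. Of 10 on the panel 8 were counted, 2 of them over 2-fold higher, 1 over 2-fold lower and 5 within 2-fold. Elovl6, which lengthens palmitate, the product of Fasn, had 7911 CPM at 0 h and 1708 at 8 h (log2 -2.21, -2.25 to -2.18). Elovl3, which makes very long saturated and monounsaturated chains, had 591 UMIs at 0 h and 15762 at 8 h (chromosome 19, 46131897 to 46135694). In deep barcodes it stood at 76.5 and 3620 CPM, a log2 ratio of 5.56 (5.44 to 5.69). Elovl5, an elongase of polyunsaturated chains (chromosome 9, 77917364 to 77984519), went from 2596 to 7473 CPM. The log2 ratio was 1.53 in all barcodes, 1.52 in deep ones (1.49 to 1.55) and between 1.33 and 1.72 in every shared depth range. So 1 elongase was over 2-fold lower and 2 were over 2-fold higher. Elovl1 (log2 -0.76) and Elovl2 (-0.53), elongases of very long and polyunsaturated chains, were lower within 2-fold. Fads2 (-0.43) and Fads1 (-0.28), the delta-6 and delta-5 desaturases, were also within 2-fold. Scd1, the delta-9 desaturase, stood at 76841 and 82942 CPM in deep barcodes (log2 0.11).

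Triglyceride synthesis was represented by 3 genes. Gpam, the mitochondrial acyltransferase of the first step, had 7454 CPM at 0 h and 2368 at 8 h (log2 -1.65, -1.69 to -1.62). Dgat2, an enzyme of the last step, had 9754 and 5587 CPM (-0.80), and Dgat1, its unrelated counterpart, 253 and 211 (-0.27, -0.38 to -0.15). In deep barcodes Dgat2 stood at -0.92 and Dgat1 at -0.26, again within 2-fold. In barcodes of like depth Dgat2 was past 2-fold, at -1.14 for 300 to under 600 UMIs and -1.02 for 600 to under 1200, while Gpam stood at -1.71 in both ranges.

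Genes of glucose use and glucose production were also on the panel. Pklr, liver pyruvate kinase, the last enzyme of glycolysis and a target of ChREBP, had 2804 and 2773 CPM. Its log2 ratio was -0.016 (-0.050 to 0.017) in all barcodes, -0.14 in deep ones and 0.0059 (-0.032 to 0.044) in deep ones without Alb. Pklr was thus near its fed level, while the libraries of 16, 24 and 30 h held 667, 394 and 254 CPM of it.

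On the glucose-producing side, Pck1, cytosolic phosphoenolpyruvate carboxykinase, had 28805 UMIs per 1000000 panel UMIs other than Alb at 0 h and 91891 at 8 h in deep barcodes. That was a log2 ratio of 1.67 (1.66 to 1.69). With Alb in the denominator the ratio was 1.58 in all barcodes and lay between 1.33 and 1.72 in each shared depth range. G6pc, the catalytic subunit of glucose-6-phosphatase, was at the threshold. It was 1.98-fold higher in all barcodes (log2 0.98, 0.96 to 1.01) and past 2-fold without Alb (1.08). In deep barcodes the G6pc ratio was 0.95. At like depth it was lower the deeper the barcodes, from 2.12 at 100 to under 200 UMIs to 1.26 at 300 to under 600. It was 0.80 at 600 to under 1200 and 0.35 (0.15 to 0.54) at 1200 or more. Sds, serine dehydratase, which turns serine into pyruvate, had a log2 ratio of 1.49 in all barcodes and 1.21 (1.18 to 1.25) in deep ones. Within the 8 h library Sds was highest in the shallowest barcodes, 12320 CPM under 100 UMIs against 4111 at 600 to under 1200. Apart from UMIs per barcode, the Sds ratio lay between 1.10 and 1.89 under every setting run. Those settings include barcodes of 300 to under 600 and of 600 to under 1200 UMIs. The part of depth in the Sds ratio was not tested.

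Of the IGF axis, 3 of 4 panel genes were counted and 1 was past 2-fold. Igfbp1, a secreted protein that binds insulin-like growth factors and is repressed by insulin (chromosome 11, 7197782 to 7202546), had 1855 UMIs at 0 h and 23244 at 8 h. In deep barcodes it stood at 246 and 5375 CPM (log2 4.45, 4.38 to 4.52). Igfbp2, another binding protein, was at -0.30 (-0.33 to -0.27). Igf1, the growth factor itself, had 11550 CPM at 0 h and 7514 at 8 h (-0.62, -0.64 to -0.60). Igfbp3 had 28 and 17 UMIs and was not counted.

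Bile acid synthesis from cholesterol was held by 11 panel genes. In all barcodes 2 of them were over 2-fold higher, 0 over 2-fold lower and 9 within 2-fold. Over all genes counted, 17.9% were over 2-fold higher, so 2 of 11 is near that share. In deep barcodes 1 of the 11 was over 2-fold higher, as Cyp46a1 stood at 0.98. Their median log2 ratio was 0.65 in all barcodes and 0.51 in deep ones, beside 0.047 and -0.14 for all genes counted. In both pools the libraries differ in depth, and at like depth the list was mixed, as given below. Hsd3b7, which oxidises the sterol ring, had 1471 CPM at 0 h and 3968 at 8 h (log2 1.43, 1.40 to 1.47), and 1.42 in deep barcodes. In those of 300 to under 600 UMIs Hsd3b7 was within 2-fold, at 0.72 (0.63 to 0.81), and in those of 600 to under 1200 at 1.03. Its exons are overlapped by Gm49388. Cyp46a1, a cholesterol 24-hydroxylase better known from brain, had 395 UMIs at 0 h and 429 at 8 h, or 52.3 and 108 CPM (log2 1.04, 0.84 to 1.24). Cyp8b1, the 12-alpha-hydroxylase that sets cholic acid output, was just inside 2-fold, with 2543 and 4878 CPM (0.94). Cyp7a1, the rate-limiting enzyme, stood at 0.75, Cyp27a1, the sterol 27-hydroxylase, at 0.65 and Cyp2c70, which makes muricholic acids, at 0.66. Cyp7b1, the oxysterol 7-alpha-hydroxylase, was lower (-0.53, -0.58 to -0.48), and so was Slc27a5, a bile acid CoA ligase (-0.51). At like depth Cyp7b1 was past 2-fold lower, at -1.12 for 300 to under 600 UMIs and -1.05 (-1.14 to -0.96) for 600 to under 1200. Slc27a5 stood at -0.72 and -0.82 in these ranges. Akr1d1 (0.10), a sterol ring reductase, Cyp39a1 (0.13), another oxysterol hydroxylase, and Baat (0.37), which conjugates bile acids, complete the list. At 300 to under 600 UMIs, Cyp46a1 (0.98), Hsd3b7, Cyp8b1 (0.66), Cyp39a1 (0.20) and Cyp2c70 (0.089) stood above 0. Below 0 there were Cyp7b1, Cyp7a1 (-0.60), Baat (-0.28), Akr1d1 (-0.26), Cyp27a1 (-0.19) and Slc27a5. The all-gene median in that range was -0.34.

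Among the bile acid sensors, Nr0b2, the repressor SHP, had 374 CPM at 0 h and 555 at 8 h (log2 0.57, 0.49 to 0.65). S1pr2, a receptor that responds to conjugated bile acids, had 59.9 and 78.7 CPM (0.39, 0.18 to 0.61). Nr1h4, the bile acid receptor FXR, was at 0.10 in all barcodes and -0.034 (-0.094 to 0.025) in deep ones. Fgf15, an intestinal hormone, had 0 UMIs in both libraries. Fgf21, a fasting hormone of the liver, was at 0.32 (0.057 to 0.59) in all barcodes and 0.23 (-0.071 to 0.53) in deep ones.

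For several genes, pericentral ones among them, the sign differed between all barcodes and barcodes of like depth. In all barcodes Cyp2e1, a pericentral cytochrome P450 that metabolises ethanol, had 11020 CPM at 0 h and 21897 at 8 h (log2 0.99). Gulo, the pericentral enzyme of vitamin C synthesis, was at 0.75. Yet in barcodes of 300 to under 600 UMIs, Cyp2e1 had 36062 CPM at 0 h and 24121 at 8 h, a ratio of -0.58 (-0.61 to -0.55). In those of 600 to under 1200 UMIs it was -0.56. Gulo stood at -0.82 and -0.39 in these ranges and Cyp7a1 at -0.60 (-0.71 to -0.48) and -0.42. Cyp27a1 was at -0.19 (-0.29 to -0.092) in the first and 0.13 in the second. Baat, at 0.021 in all deep barcodes, stood at -0.28 (-0.38 to -0.17) and -0.0066 (-0.069 to 0.055). Akr1d1 stood at -0.26 (-0.35 to -0.16) and 0.093, and Nr1h4 at -0.33 (-0.47 to -0.18) and 0.018. Scd1 also changed sign in the first range. Deeper barcodes of both libraries mostly held less Cyp2e1. The 0 h level was 36062 CPM at 300 to under 600 UMIs, 16520 at 600 to under 1200 and 4318 above, and the 8 h level 24121, 11225 and 19181. The 8 h library held few deep barcodes, 30 of 1200 or more UMIs against 2775 at 0 h. Among barcodes at or above the median depth of their own library, the Cyp7a1 ratio was 1.44, so its sign differed between these choices. Fasn (-2.14 to -3.12), Srebf1, Pck1 and Elovl5 kept their sign and stayed past 2-fold in every range.

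**Figure D2:**
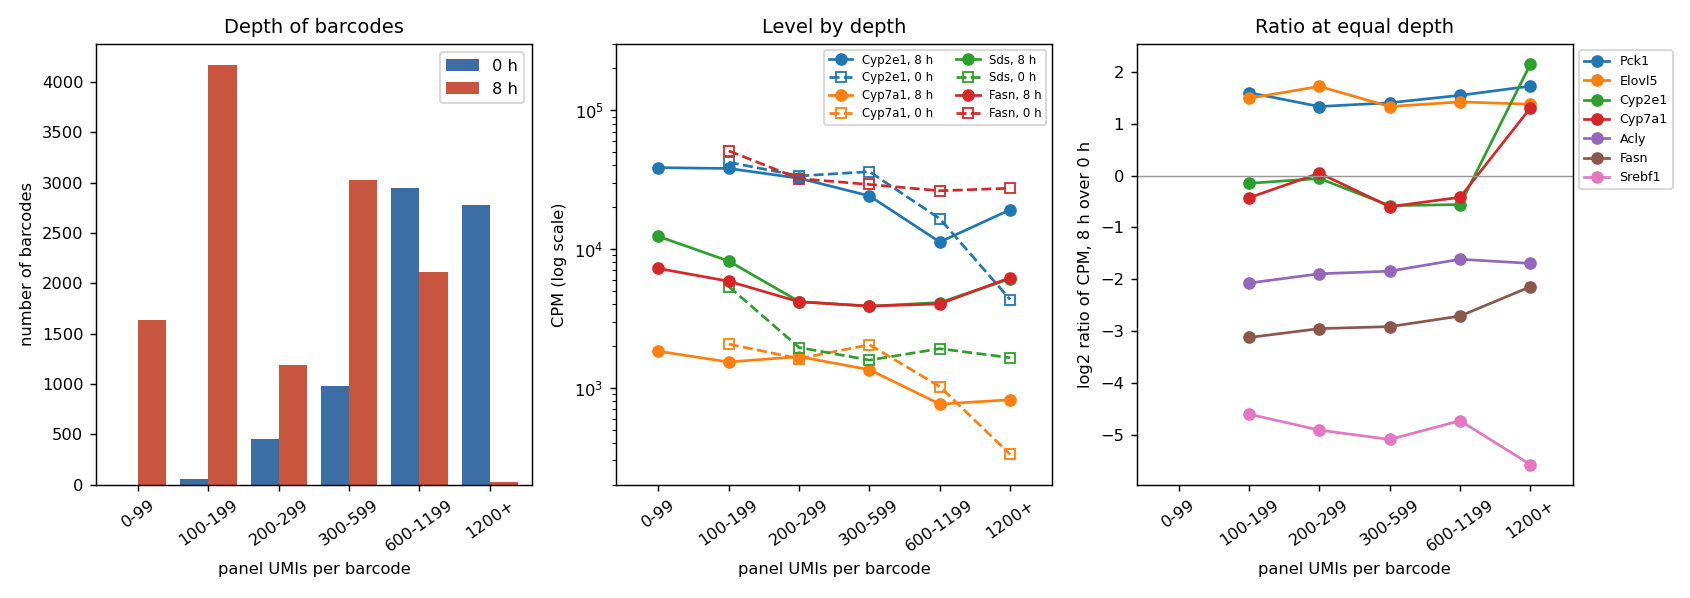
Left, number of barcodes in 6 ranges of panel UMIs per barcode at 0 h and 8 h. Middle, CPM (log scale) of 4 genes in each range, 8 h as filled points and 0 h as open squares. Right, log2 ratio of 8 h over 0 h within each range that both libraries fill, where Cyp2e1 and Cyp7a1 lie below 0 from 300 to under 1200 UMIs and above 1 only at 1200 or more, a range with 30 barcodes at 8 h.

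Genes of other liver cells were also more abundant in shallow barcodes. The panel held 6 such markers, Cdh5 of endothelium, Mrc1, Cd68 and Ptprc of macrophages and other immune cells, and Pdgfra and Pdgfrb of mesenchymal cells, and none was at 0. Their summed level was 76.2 CPM (70.1 to 82.6) in the fed library and 220 (206 to 235) in the fasted one. In deep barcodes it was 40.8 (36.3 to 45.7) and 55.2 (47.1 to 64.2). Mrc1 had a log2 ratio of 1.82 in all barcodes and -0.21 (-0.85 to 0.39) in deep ones, Cdh5 1.40 and -0.12, and Cd68 1.73 and 1.20. At like depth the signs differed. At 100 to under 200 UMIs, Mrc1 stood at -3.74, Cdh5 at -4.06, Cd68 at -3.03 and Ptprc at -4.62. The 0 h side there rests on 33, 30, 9 and 21 UMIs. At 300 to under 600 UMIs they stood at -1.67, -1.29, 0.26 (-0.84 to 1.51) and -1.71. At 600 to under 1200 UMIs all were above 0, with only the Cd68 interval (0.23 to 1.89) clear of it. The 0 h library had no barcode under 100 UMIs. Without the barcodes that hold any UMI of the 6 genes, the 7 hepatocyte genes above 2-fold and the 7 below it all stayed so. Actb, an all-cell control gene, was lower at 8 h (log2 -0.56, and -0.68 in deep barcodes).

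Single barcodes were compared after each of 300 or more UMIs was thinned to 300. Fasn had a median of 8 UMIs at 0 h (3 and 14 at the 10th and 90th percentile) and of 1 at 8 h (0 and 3). In 95.2% of all pairs of a fed and a fasted barcode the fed one held more Fasn. For Pck1 the median went from 2 UMIs (0 to 6) to 7 (2 to 13), and the fasted barcode held more in 79.5% of pairs and less in 14.6%. Acly went from a median of 6 (2 to 11) to 1 (0 to 4), with the fed barcode higher in 83.0% of pairs. Scd1 had medians of 21 (10 to 40) and 22 (9 to 44), and the fasted barcode was higher in 50.7% of pairs. So Fasn overlapped least between the libraries of these 4 genes and Scd1 most. Barcodes of 1 library are not replicates, so no test was made.

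Spread within a library differed between genes. At 8 h the variance of Igfbp1 over barcodes was 2.62 times its mean and that of Elovl3 1.83 times, against 1.62 for Elovl5 and 1.41 for Elovl6. The top 10% of barcodes held 39.2% of the thinned Igfbp1 UMIs and 38.2% of those of Elovl3. For Elovl5 that share was 27.5% and for Elovl6 48.9%. Means also differed, at 1.64 UMIs for Igfbp1, 1.15 for Elovl3, 2.30 for Elovl5 and 0.51 for Elovl6. The medians of Igfbp1 and Elovl3 were 1 UMI, too near the smallest count to read further. For Pck1 the share in the top 10% was 33.0% at 0 h and 22.2% at 8 h, and its variance was 2.81 and 2.82 times the mean.

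**Figure D3:**
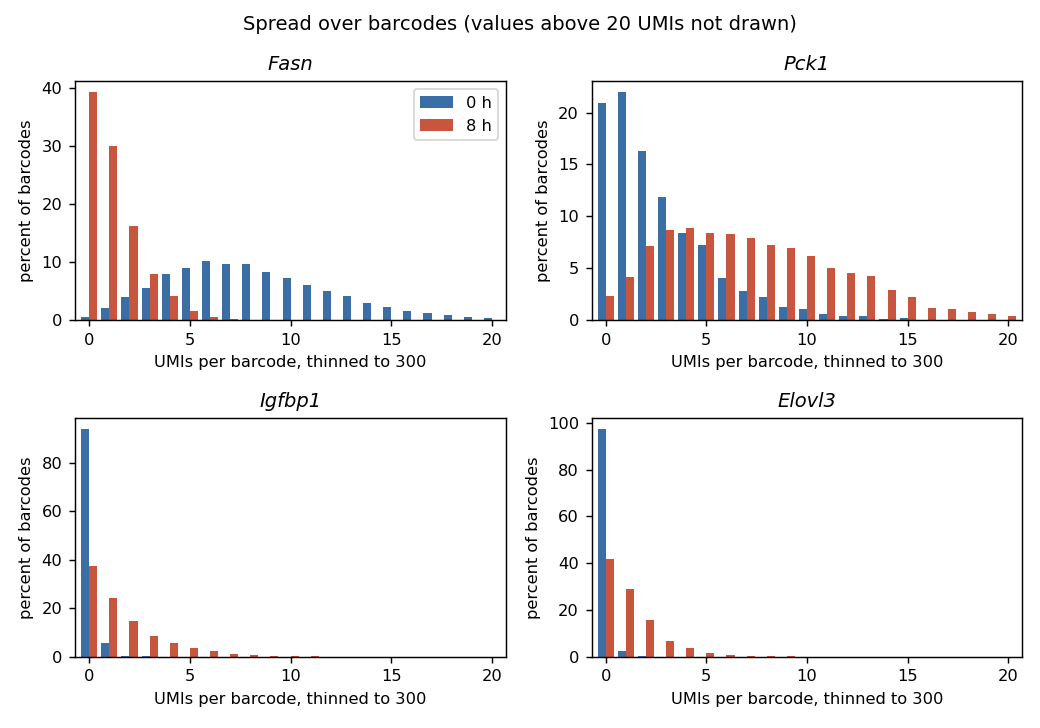
Percent of barcodes at each number of UMIs of Fasn, Pck1, Igfbp1 and Elovl3 after thinning to 300 UMIs, 0 h in blue (6704 barcodes) and 8 h in red (5159). The Fasn bars move from a centre near 8 to near 1, those of Pck1 from 2 to 7, and for Igfbp1 and Elovl3 the bar at 0 shrinks from 93.8% to 37.2% and from 97.3% to 42.0% of barcodes but stays the tallest.

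Position along the lobule was then taken from the balance of Cyp2e1 to the periportal gene Cyp2f2, with the deep barcodes of each library cut into 3 equal zones. The outer zones are called periportal and pericentral by that rule alone. Glul, the glutamine synthetase of cells at the central vein (an exon is overlapped by Mir8114), took no part in the ranking. At 0 h it stood at 1671 CPM in the periportal zone and 3229 in the pericentral one, and at 8 h at 1017 and 3814. The zones do not cover the same range, since the pericentral zone began at a log2 balance of -1.46 at 0 h and 0.00 at 8 h. Many shallow 8 h barcodes, rich in Cyp2e1, were left out. Alb took 72.0% and 63.3% of UMIs in the periportal and pericentral zones at 0 h, and 77.7% and 62.2% at 8 h. This shifts every difference between zones by -0.37 when Alb is left out. The median difference in log2 change, pericentral minus periportal, over 45 genes was 0.29 with Alb and -0.080 without.

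The main response was present in every zone. With Alb in the denominator, 6 of those 45 genes were over 2-fold higher in all 3 zones (Elovl3, Elovl5, Hsd3b7, Igfbp1, Pck1 and Sds). Another 6 were over 2-fold lower in all 3, among them Acly, Elovl6, Fasn, Gpam and Srebf1. Its size differed. Without Alb, Elovl6 stood at -2.42 in the periportal and -1.88 in the pericentral zone, a difference of 0.54 (0.43 to 0.65). Acly stood at -1.83 and -1.53, and Fasn at -2.73 and -2.55, a difference of 0.17 (0.11 to 0.24). Igfbp1 was higher by 4.33 in the periportal and 4.80 in the pericentral zone (difference 0.47, 0.30 to 0.64). G6pc, past 2-fold in all 3 zones only without Alb, had changes of 1.03 and 1.27. Cyp8b1 had changes of 0.83 and 1.18 (difference 0.35, 0.27 to 0.43). Elovl3 went the other way, with 6.17 and 5.25 (difference -0.91, -1.22 to -0.60), from 160 UMIs per 1000000 other than Alb in the periportal and 417 in the pericentral zone at 0 h.

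Nr0b2, the repressor SHP, had the lowest difference of the 45 genes in both denominators. It had 351 CPM at 0 h and 658 at 8 h in the periportal zone, 364 and 656 in the middle one, and 410 and 365 in the pericentral one. The log2 change was 0.91, 0.85 and -0.17 (-0.36 to 0.016), and the difference between the outer zones -1.08 (-1.31 to -0.85). It was -1.45 without Alb, -1.34 between the outer of 5 zones, -0.80 with the cut points of the 0 h library and -1.02 in barcodes of 600 or more UMIs. Hsd17b13, a periportal lipid droplet enzyme, also differed, at -0.10 in the periportal and -0.61 in the pericentral zone. That difference of -0.51 was -0.064 with the 0 h cut points. Glul had a difference of 0.96 (0.84 to 1.07), which was 0.37 with those cut points.

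**Figure D4:**
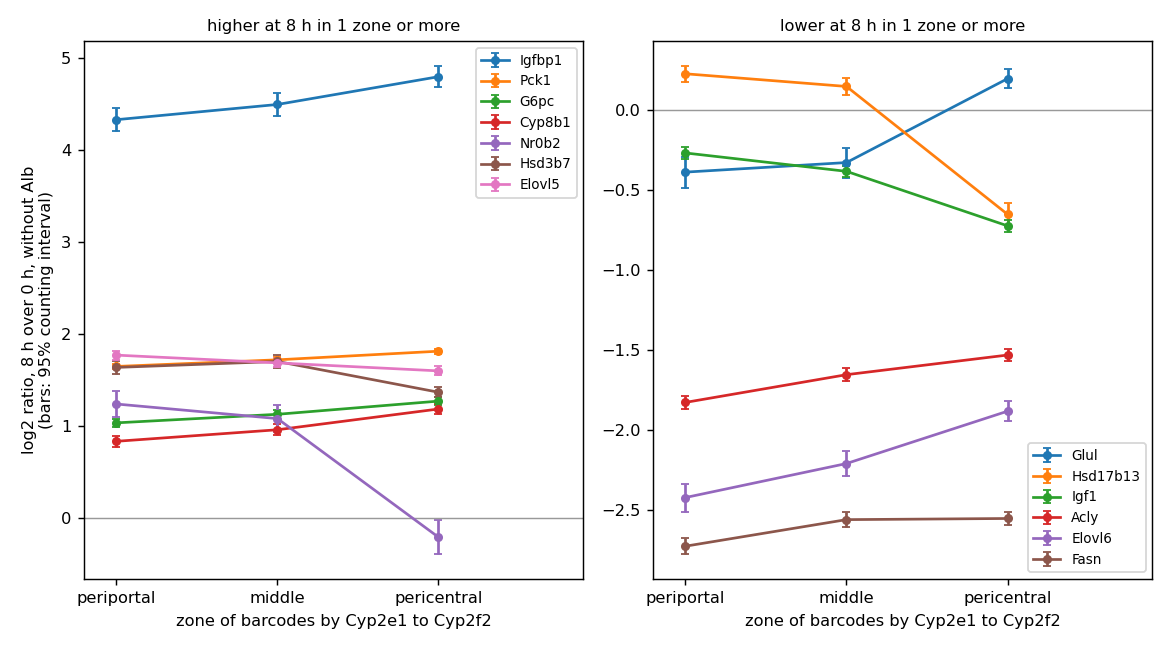
Log2 ratio of 8 h over 0 h, without Alb in the denominator, in zones of the deep barcodes ordered by Cyp2e1 to Cyp2f2. Bars are 95% counting intervals. Nr0b2 stands at -0.21 in the pericentral zone while Igfbp1 goes from 4.33 to 4.80, and Glul and Hsd17b13 cross 0 in opposite directions.

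Some levels at 8 h were the extreme of all 5 libraries of the series. Of the 56 genes counted, 15 had their highest and 8 their lowest CPM at 8 h, and in deep barcodes 10 and 11. Averaged over 5 libraries, 1 gene in 5 is highest, and 1 in 5 lowest, in each. Among the 15 were Mrc1, Cdh5, Cd68 and Ptprc of other liver cells. Among those not highest in deep barcodes were Mrc1, Cdh5, Baat, Gulo and Glul, the last 2 at 1.03 and 1.01 times the next library. Elovl3 at 8 h was 2.74 times the next highest library, Cyp46a1 2.06 times, Elovl5 1.66 times and Igfbp1 1.48 times. The libraries also differ in clock hour, with 5 at 16 h, 13 at 24 h and 19 at 30 h. Elovl3 had 78.3 CPM at 0 h and 83.5 at 24 h, both at clock hour 13, and 843 at 16 h and 1445 at 30 h. The part of clock hour in these orders was not tested. Srebf1 at 8 h was the lowest, with 1.42 times as much in the next lowest library. Igf1 was also lowest at 8 h, at 7514 CPM against 10347 to 21227 in the others. Single libraries give no spread for these orders.

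**Figure D5:**
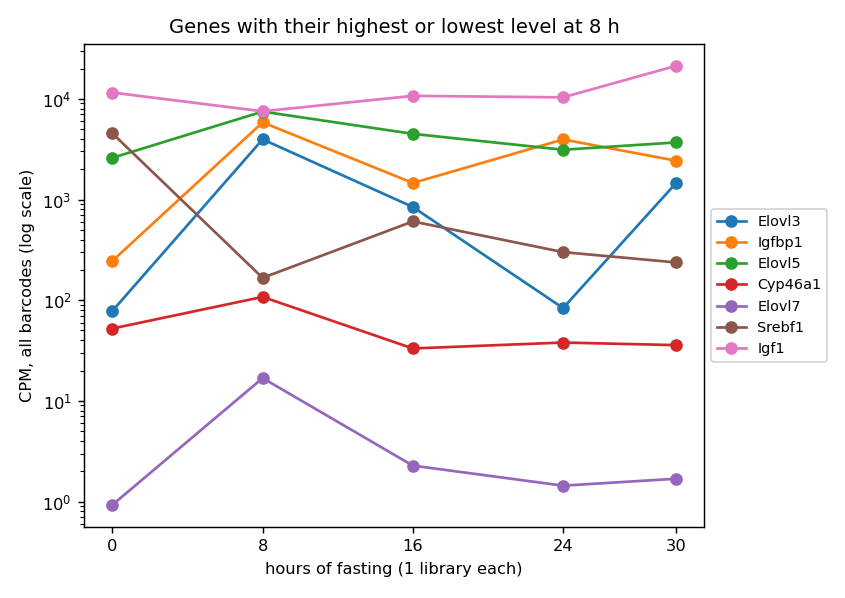
CPM (log scale, all barcodes) of 7 genes against hours of fasting, 1 library per point. The clock hours of the points, in order, were 13, 21, 5, 13 and 19. Elovl3, Igfbp1, Elovl5, Cyp46a1 and Elovl7 peak at 8 h and Srebf1 and Igf1 have their lowest point there. Elovl7 rests on 7 UMIs at 0 h and 67 at 8 h.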

How the data were processed

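Per the labels' protocols, isolated hepatocytes gave 1 Chromium 3' library per time point, enriched by hybridization for a gene panel. The authors deposited a matrix of UMI counts of 64 genes in 47473 barcodes, not normalized. It was made with Cell Ranger 6.0.1 on mm10, per the submitters' processing notes. The rule for calling cells is not given in the sources used here. Each barcode has its library in the deposited barcode table. No doublet caller was run on this panel.

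For each library the UMIs of a gene, over every barcode, were scaled to 1000000 panel UMIs (CPM), with and without Alb in the denominator, and again in barcodes of 300 or more UMIs. Ratios have exact conditional binomial intervals and levels exact Poisson intervals, at 95%, which hold counting error alone. As each time point has 1 library, no p-value was computed. A gene was counted from 100 UMIs in the pair, and a gene was called past 2-fold.

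For the spread over barcodes and for lobule position, each barcode of 300 or more UMIs was thinned at random to 300 (seed 1). Barcodes were ranked within each library by log2 of Cyp2e1 plus 1 over Cyp2f2 plus 1 and cut into 3 zones, whose full UMIs were summed. A difference between zones has a normal interval from its 4 counts.

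The genes named were the panel genes past 2-fold and those on lists of metabolic pathways and controls, except items that are not reported here. The zone markers Cyp2e1, Gulo, Glul and Hsd17b13, and Fgf21, Ptprc, Pdgfra and Pdgfrb, were named outside that rule after their values were seen. The genes and lists were chosen with earlier results of these data known. Alternatives were other denominators, depth ranges, thinning, position cuts and count minimums. Those chosen after seeing the data were barcodes at or above the median depth, no shared barcode sequences, and no barcodes with non-hepatocyte UMIs. Gene positions came from GENCODE M21 (GRCm38) and promoters from RefSeq's GRCm38.p6 table. The calculations used Python 3.11.15 with numpy 2.4.6 and scipy 1.17.1, and were tested on simulated data.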

Additional observations from a re-analysis of the deposited data

Results flagged for a closer look

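Elovl7, an elongase of very long chains, was under the minimum of 100 UMIs and entered no count, but had a signal above the fed level. With 7 UMIs in the fed and 67 in the 8 h library its log2 ratio was 4.18 (3.06 to 5.55). The 3 later libraries held 14, 15 and 19. In barcodes of 300 or more UMIs the ratio was 3.83 (2.65 to 5.23).

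Pdgfra (13 and 23 UMIs, log2 1.75, 0.71 to 2.85) and Pdgfrb (19 and 22 UMIs, 1.14, 0.18 to 2.10), both mesenchymal, were also under the minimum and above the fed level. In barcodes of 300 or more UMIs both intervals included 0.

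Glul moved in opposite directions in the outer zones, with a log2 change of -0.72 in the periportal and 0.24 in the pericentral zone. Without Alb the changes were -0.39 and 0.20. The intervals of the outer zones lay on opposite sides of 0 under both denominators. The zones began at unlike balances in the 2 libraries, and with the 0 h cut points the difference was smaller, as given above. Without zones, Glul was lower at 8 h in every shared depth range, from -0.30 to -1.03. At 1200 or more UMIs that interval reached 0.021. The difference between the zones was not tested, as each comes from 1 library per time point.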

How the results depend on the processing

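By UMIs per barcode, where the median log2 ratio of all genes moved to -1.63, 2 genes were over 2-fold higher and 40 lower. There Pck1 stood at -0.10, Sds at -0.18, Elovl5 at -0.15, Hsd3b7 at -0.25, Cyp46a1 at -0.63 and Cdh5 at -0.28. Higher genes numbered 6 in barcodes of 300 to under 600 UMIs and 6 in those of 600 to under 1200, with all-gene medians of -0.34 and -0.30. Under the other settings run, the higher count lay between 7 and 13 and the lower between 6 and 7. In the 2 depth ranges the lower count was 9 and 10. Mrc1 was -0.21 in barcodes of 300 or more UMIs, -0.063 there without Alb, -1.67 at 300 to under 600 UMIs and -1.04 after thinning. Cdh5 was -0.12 at 300 or more UMIs and -1.29 at 300 to under 600. The non-hepatocyte sum was 149 CPM at 8 h in barcodes of 100 or more UMIs, and 55.2 at 8 h and 40.8 at 0 h in those of 300 or more. Leaving out shared barcode sequences, chosen after seeing the data, kept all 17 genes past 2-fold. No paired analysis was possible because each time point has 1 library. The 8 h depth limits rare genes most, and the cause of these moves was not tested.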
